A study of Mus musculus with 24 samples.

Results

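The mid-activity step compared the ventral tegmental area (VTA) of mice killed at ZT20 with that of mice killed 4 h earlier, at ZT16, both in the dark phase, when mice are awake and feeding. ZT (Zeitgeber time) counts hours from lights on. The step was defined by the time labels alone and took in the 4 ZT20 and the 4 ZT16 arrays, 8 of the 24 arrays of the series, across the 23410 probe sets to which the platform's annotation assigns a gene, called transcripts here. Both groups were wild-type male C57BL/6N mice of 10 to 12 weeks, untreated, with free access to standard chow and water under 12 h of light and 12 h of darkness, so that the time of death was the only labelled difference between them. Each mouse gave 1 punch of the VTA and 1 array. The whole series holds 4 such mice at each of 6 time points. No gene was altered in these mice, and no batch of dissection or hybridization is named in the labels.

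The VTA is the midbrain nucleus whose dopamine neurons project to the nucleus accumbens and prefrontal cortex and take part in reward and motivation. Most cells of the body carry a circadian clock. Whether the VTA holds a working one is called debated by the study, which proposes that it does. In this clock the activators CLOCK and ARNTL (BMAL1) drive the Per and Cry genes, whose proteins then repress them. A second loop runs through the nuclear receptors NR1D1 and NR1D2 (REV-ERBs) and the RORs, and the PAR-bZIP factors DBP, HLF and TEF carry the rhythm to other genes. In nocturnal rodents the late dark phase follows the main bout of feeding and comes before rest.

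Values are RMA levels on a log2 scale, on which a difference of 1 is a doubling, and every difference is ZT20 minus ZT16. Genes that mark dopamine neurons were present. Th, the rate-limiting enzyme of dopamine synthesis, averaged 7.87 ± 0.26 at ZT20 and 7.80 ± 0.22 at ZT16 (SD, n = 4 each), and Slc18a2, the vesicular monoamine transporter, averaged 7.46 ± 0.03 at ZT20 and 7.39 ± 0.06 at ZT16, where the median over all transcripts was 6.76. A punch also holds glia, vessels and other neurons, and fewer cells of a type and less RNA per cell cannot be told apart in it. The 8 arrays had medians of 6.75 to 6.78. Pairwise Pearson correlations across transcripts were 0.987 to 0.992 between ZT20 and ZT16 arrays and 0.988 to 0.992 within the 2 times. Of the arrays outside the comparison, ZT0 replicate 4 stood apart, with a median correlation of 0.970 with the others. It enters the comparison only through the shared estimate of the spread.

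No transcript changed between ZT16 and ZT20 by the test across all transcripts. In the limma fit 0 of 23410 transcripts (0%) passed a Benjamini-Hochberg adjusted p under 0.05, and the smallest adjusted p was 0.9998. At an unadjusted p under 0.05 there were 905 transcripts (3.87%), 494 of them higher at ZT20 (2.11%) and 411 lower (1.76%), where p-values spread evenly from 0 to 1 would put 1170.5. Under 0.01 there were 187 (0.799%). In 654 transcripts (2.79%) the 4 ZT20 arrays did not overlap the 4 ZT16 arrays, 335 with all ZT20 arrays above (1.43%) and 319 with all below (1.36%). Differences above 0 made up 51.7% of all transcripts and differences below 0 made up 48.3%.

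**Figure D1:**
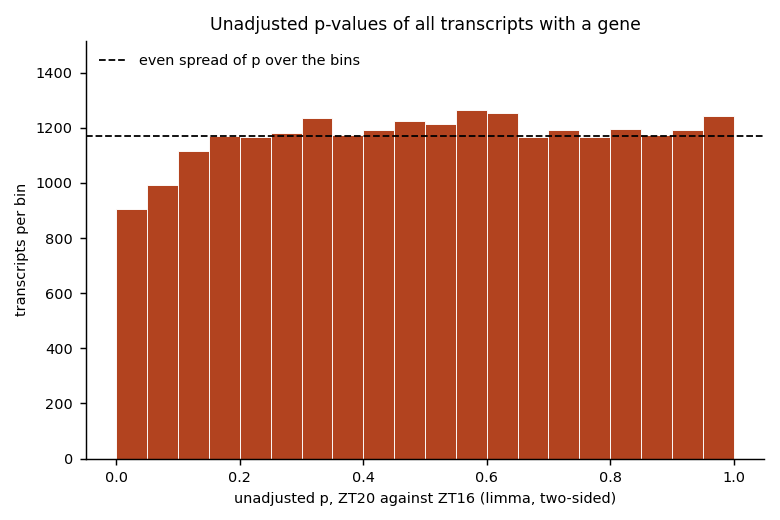
Number of transcripts (y axis) in each bin of the unadjusted p-value for ZT20 against ZT16 (x axis, limma, two-sided), with a dashed line where an even spread would lie. The leftmost bin, under 0.05, holds 905 transcripts and lies below the line at 1170.5 in this fit of all 24 arrays. Without ZT0 replicate 4 the count under 0.05 was 1308.

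The data also set a limit on how large a difference in array signal could be. How closely that signal follows the amount of RNA, also at low levels, was not tested. The median difference was 0.00, and the 5th and 95th percentiles were -0.16 and 0.17. For 98.8% of transcripts the whole 95% confidence interval lay within a 1.5-fold difference in either direction. The estimated difference itself exceeded 1.5-fold in 4 transcripts and 2-fold in 0. The standard error of a difference had a median of 0.09. Within these intervals a difference was not detectable with 4 mice per time, which does not show that there was none. The transcripts were split into 3 equal classes by mean level, and the share under an unadjusted p of 0.05 was 5.84% in the low class, 3.86% in the middle class and 1.90% in the high class. In the high class 53.9% of differences were below 0, with a median of -0.01, and in the low class 45.5% were, with a median of 0.01.

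The core clock genes, listed with earlier results of these data known, were on balance slightly lower at ZT20, and none passed the test. Of 14 measured genes 12 were lower and 2 higher, with a median difference of -0.05, beside 9852 of 19938 genes lower and a median of 0.00 over all genes. That median was -0.09 among transcripts above the median level. It was -0.08 without ZT20 replicate 1, ZT20 replicate 2 or ZT16 replicate 1 and -0.02 without ZT16 replicate 4. The 12 lower genes include Cry1, Rorb, Arntl, Per1, Per2 and Per3, which changed sign under at least 1 alternative processing. Under an unadjusted p of 0.05 there were 2 genes (Ciart and Nr1d2, both lower), beside 1.76% of all transcripts lower and 3.87% in both directions. The mean level of the 14 genes was 7.40 ± 0.04 in ZT20 arrays and 7.48 ± 0.04 in ZT16 arrays (SD, n = 4 each), with array values of 7.35 to 7.44 at ZT20 and 7.44 to 7.52 at ZT16.

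Ciart (Chrono), a repressor of the CLOCK and ARNTL complex, had levels of 8.29, 7.98, 7.74 and 7.69 in ZT20 arrays, against 8.24, 8.13, 8.11 and 8.24 in ZT16 arrays. ZT20 replicate 1 lay above all ZT16 arrays and the other 3 below them, so that the groups overlap. The difference was -0.26 ± 0.10 (SE; limma, unadjusted p = 0.0200, adjusted p = 1). A second probe set of Ciart differed by 0.04. Nr1d2, which represses Arntl together with Nr1d1, had 8.59, 8.71, 8.75 and 8.70 in ZT20 arrays, against 8.82, 8.94, 8.82 and 8.91 in ZT16 arrays, without overlap. Its difference was -0.19 ± 0.08 (SE; limma, unadjusted p = 0.0268, adjusted p = 1).

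Bhlhe41 (Dec2), another repressor of CLOCK and ARNTL activity, was, with Nr1d2, the other of 2 core clock genes whose groups did not overlap, with all ZT20 arrays below as in 1.36% of all transcripts. Its levels were 7.30, 7.30, 7.27 and 7.36 in ZT20 arrays, against 7.59, 7.51, 7.56 and 7.61 in ZT16 arrays. The SD within each of these times was 0.04, but 0.50 at ZT0. There, replicate 4 was at 6.52 and the others at 7.40 to 7.61. The fit shares 1 spread over all 6 times. The difference of -0.26 therefore had a standard error of 0.16 and an adjusted p of 1 from limma, and of 0.893 in a fit of the 8 arrays alone. Its relative Bhlhe40 averaged 7.25 ± 0.13 at ZT20 and 7.38 ± 0.12 at ZT16 (SD, n = 4 each), and Nr1d1 averaged 8.19 ± 0.08 at ZT20 and 8.35 ± 0.14 at ZT16, both with overlap between the groups.

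CLOCK and ARNTL act through the E-box, and the promoters of Ciart and Bhlhe41 are shown because these clock genes had the largest differences and both windows hold that motif. They run from 250 bases before to 50 after the gene's start (RefSeq, GRCm38.p6), both on the minus strand, at chr3:95882179-95882478 and chr6:145865371-145865670, and capitals mark each E-box.
Ciart: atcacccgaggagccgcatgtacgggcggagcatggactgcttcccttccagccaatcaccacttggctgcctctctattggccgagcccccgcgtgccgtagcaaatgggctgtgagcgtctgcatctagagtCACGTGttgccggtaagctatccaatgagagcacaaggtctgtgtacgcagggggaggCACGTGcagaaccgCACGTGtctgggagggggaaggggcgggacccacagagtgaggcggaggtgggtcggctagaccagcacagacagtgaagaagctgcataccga
Bhlhe41: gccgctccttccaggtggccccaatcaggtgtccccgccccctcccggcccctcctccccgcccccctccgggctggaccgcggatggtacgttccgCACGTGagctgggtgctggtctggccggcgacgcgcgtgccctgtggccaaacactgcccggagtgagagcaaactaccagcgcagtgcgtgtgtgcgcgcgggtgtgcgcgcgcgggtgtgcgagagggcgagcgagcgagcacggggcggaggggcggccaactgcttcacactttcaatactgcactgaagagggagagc
The motif searched was CACGTG, which reads the same on both strands. The Ciart window holds 3 and the Bhlhe41 window 1. Of all 32851 promoter windows of this length in the table, 2349 (7.15%) hold at least 1. Of the 24 windows of clock and clock output genes, 6 do, and some genes have more than 1 window. Of the 20 clock and clock output genes listed, 18 had a window, and 5 had an E-box in it (Ciart, Bhlhe41, Cry1, Per1 and Tef). The last 3 differed by -0.05, 0.00 and -0.03 in level. The windows describe sequence only, and no binding was measured.

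The Per and Cry genes, the repressors at the centre of the clock, and their activators hardly differed. Per1 had 6.37, 6.52, 6.77 and 6.65 in ZT20 arrays, against 6.53, 6.54, 6.69 and 6.55 in ZT16 arrays, a difference of 0.00 (95% interval -0.16 to 0.16). Cry1 had 7.75, 7.78, 7.44 and 7.36 in ZT20 arrays, against 7.50, 7.69, 7.74 and 7.61 in ZT16 arrays. Its 4 ZT20 mice fell into a high and a low pair around the ZT16 values, and the difference was -0.05 (95% interval -0.23 to 0.13). Per2 differed by -0.03, Per3 by 0.00, Cry2 by -0.06, Arntl by -0.03, Clock by 0.00, Rora by 0.03 and Rorb by -0.04. Each of their 95% intervals lay between -0.23 and 0.17. Of these, Per1, Per2, Per3, Cry1, Arntl, Clock, Rora and Rorb changed sign under at least 1 alternative processing, so no direction is given for them.

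Of the 5 measured clock output genes 4 were lower at ZT20 and 1 was higher, with a median of -0.07. Dbp averaged 7.03 ± 0.10 at ZT20 and 7.18 ± 0.14 at ZT16 (SD, n = 4 each), Hlf averaged 7.92 ± 0.13 at ZT20 and 8.04 ± 0.06 at ZT16, and Usp2 and Tef differed by -0.07 and -0.03. Nfil3 (E4BP4), which represses the D-box sites that DBP activates, was the one that was higher. Its levels were 7.68, 7.30, 7.34 and 7.37 in ZT20 arrays, against 7.04, 7.28, 7.44 and 7.10 in ZT16 arrays, a difference of 0.21 (95% interval -0.01 to 0.43). No clock output gene was under an unadjusted p of 0.05.

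**Figure D2:**
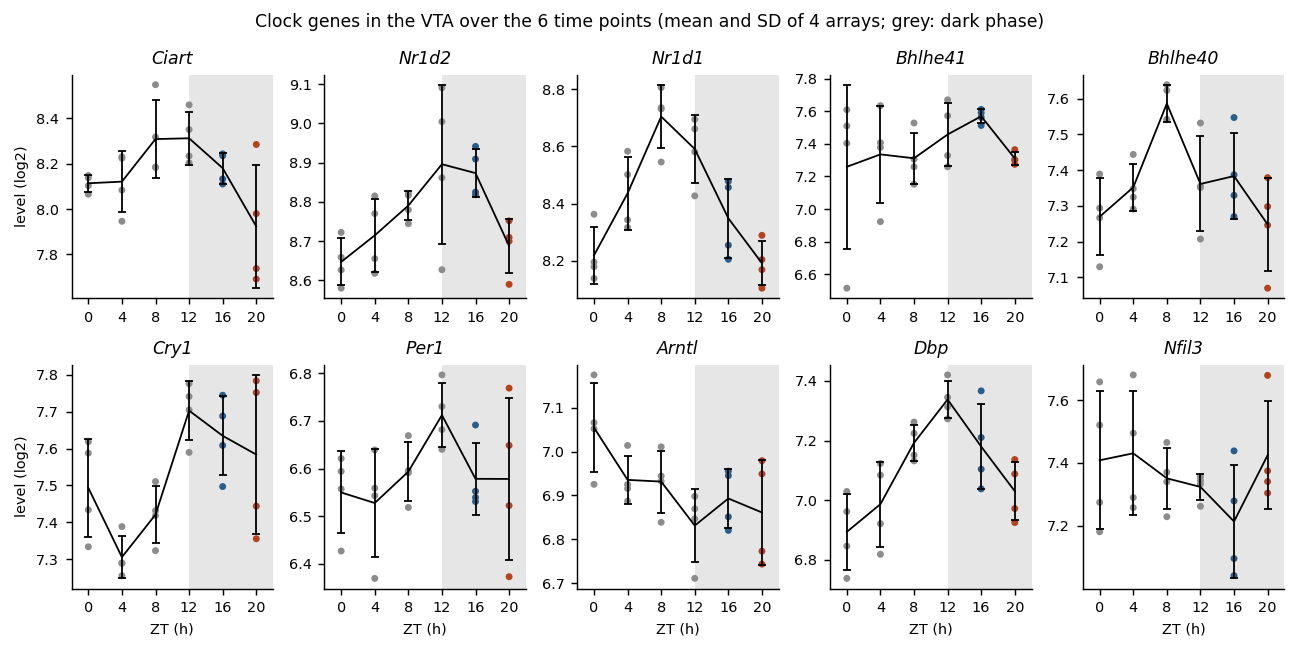
Log2 levels (y axis) of 10 clock genes at the 6 time points (x axis, ZT in h); points are arrays, lines join means, bars are SDs of 4 arrays and the dark phase is grey. ZT20 is red and ZT16 blue. Ciart, Nr1d1 and Bhlhe40 had their lowest mean of the day at ZT20, and the ZT20 arrays of Nr1d2 and Bhlhe41 lay below all ZT16 arrays.

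The step in the middle of the rest phase, ZT8 against ZT4, was set beside the mid-activity step for these clock genes. Between ZT8 and ZT4, 14 of the 19 clock and clock output genes were higher at ZT8, and 13 were both lower at ZT20 than at ZT16 and higher at ZT8 than at ZT4. Those 13 include Per1, Per2, Per3 and Cry1, for which no direction at ZT20 is given above. Neither the share of all transcripts higher at ZT8 nor the share with this pair of signs was counted. The counts therefore do not set clock genes apart from other transcripts. The difference between the mid-activity and the mid-rest steps, which share no array, was -0.43 ± 0.12 (SE) for Nr1d1, -0.45 ± 0.15 for Ciart, -0.37 ± 0.11 for Bhlhe40 and -0.35 ± 0.12 for Dbp. In all, 6 of the 19 were under an unadjusted p of 0.05 for this difference, beside 578 of all transcripts (2.47%), and 0 passed after adjustment by limma. Over all transcripts 0 passed for this difference, and ZT8 against ZT4 gave 0 called and 350 (1.5%) under an unadjusted p of 0.05. Ciart, Nr1d1 and Bhlhe40 had their lowest mean of the 6 time points at ZT20, whereas Nr1d1 and Bhlhe40 had their highest at ZT8 and Ciart at ZT12. The range of the 6 means was 0.51 for Nr1d1, 0.39 for Ciart and 0.34 for Bhlhe40, beside differences between ZT20 and ZT16 of -0.16, -0.26 and -0.14.

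Genes of dopamine synthesis, packaging and reuptake did not pass the test either. Of 12 measured genes 9 were higher and 3 lower at ZT20, with a median of 0.08, and 0 were under an unadjusted p of 0.05. Slc6a3, the dopamine transporter, had 8.53, 9.18, 8.62 and 8.40 in ZT20 arrays, against 8.46, 8.09, 8.62 and 8.73 in ZT16 arrays, with ZT20 replicate 2 the highest and ZT16 replicate 2 the lowest of the 8. Its difference of 0.21 had a 95% interval of -0.20 to 0.62. Ddc, which makes dopamine from the product of TH, had 8.55, 8.71, 8.54 and 8.31 in ZT20 arrays, against 8.26, 8.24, 8.49 and 8.38 in ZT16 arrays, a difference of 0.18 (95% interval -0.05 to 0.41). Pts, which makes the tetrahydrobiopterin cofactor that TH needs, averaged 8.85 ± 0.11 at ZT20 and 9.04 ± 0.14 at ZT16 (SD, n = 4 each), the lowest difference of the list. Th itself, named for its role after its value was seen, differed by 0.07 (95% interval -0.21 to 0.35).

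The array means of these 12 genes show how much the mice of 1 time point differed. They were 7.87, 7.97, 7.77 and 7.67 in ZT20 arrays, against 7.69, 7.64, 7.87 and 7.85 in ZT16 arrays. The ranges of both times overlapped, with ZT20 replicate 2 the highest and ZT16 replicate 2 the lowest. The 9 measured transcription factors that keep dopamine neurons in their identity (6 higher, 3 lower, median 0.02) were led by Foxa1 (0.15) and Pitx3 (0.12), and none was under an unadjusted p of 0.05.

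Among 8 genes of dopamine receptors and breakdown, 5 were higher and 3 lower, with a median of 0.03, and 2 receptors were higher at ZT20 under an unadjusted p of 0.05 (2.11% of all transcripts were). Drd2, the autoreceptor by which dopamine neurons sense their own release, had 8.22, 8.25, 8.26 and 8.05 in ZT20 arrays, against 7.93, 7.95, 8.20 and 8.02 in ZT16 arrays. Only ZT20 replicate 4 and ZT16 replicate 3 broke the separation, and the difference was 0.17 (limma, unadjusted p = 0.0364, adjusted p = 1). Drd4 averaged 6.59 ± 0.08 at ZT20 and 6.41 ± 0.10 at ZT16 (SD, n = 4 each), a difference of 0.19. Both Drd4 means lie below the median of 6.76 over all transcripts. Drd5 and Maoa, which degrades dopamine and other amines, differed by -0.12 and -0.14.

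Receptors for metabolic and feeding hormones and neuropeptides were of interest because the study concerns feeding. Of 18 measured receptors 15 were higher and 3 lower at ZT20, with a median of 0.06 that stayed above 0 in every alternative, and none was under an unadjusted p of 0.05. The 4 with the smallest p were Npy1r (0.16), Ntsr1 (0.14), Igf1r (0.12) and Mc4r (0.14), receptors of neuropeptide Y, neurotensin, insulin-like growth factor 1 and melanocortin. Npy1r had 5.91, 6.00, 6.17 and 5.93 in ZT20 arrays, against 5.87, 5.80, 5.93 and 5.77 in ZT16 arrays, and 1 ZT16 array reached the ZT20 range. Array means over the list were 6.75 to 6.81 at ZT20 and 6.69 to 6.75 at ZT16. Insr, the insulin receptor, was the 1 receptor of 18 without overlap (named after its values were seen), beside 2.79% of all transcripts, with all ZT20 arrays below and a difference of -0.18 (95% interval -0.45 to 0.09). The 15 of 18 compares with 10086 of 19938 higher over all genes. Only 5 of the 18 lie in the high class by level. In the low and middle classes 45.5% and 45.6% of all differences were below 0, against 53.9% in the high class.

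**Figure D3:**
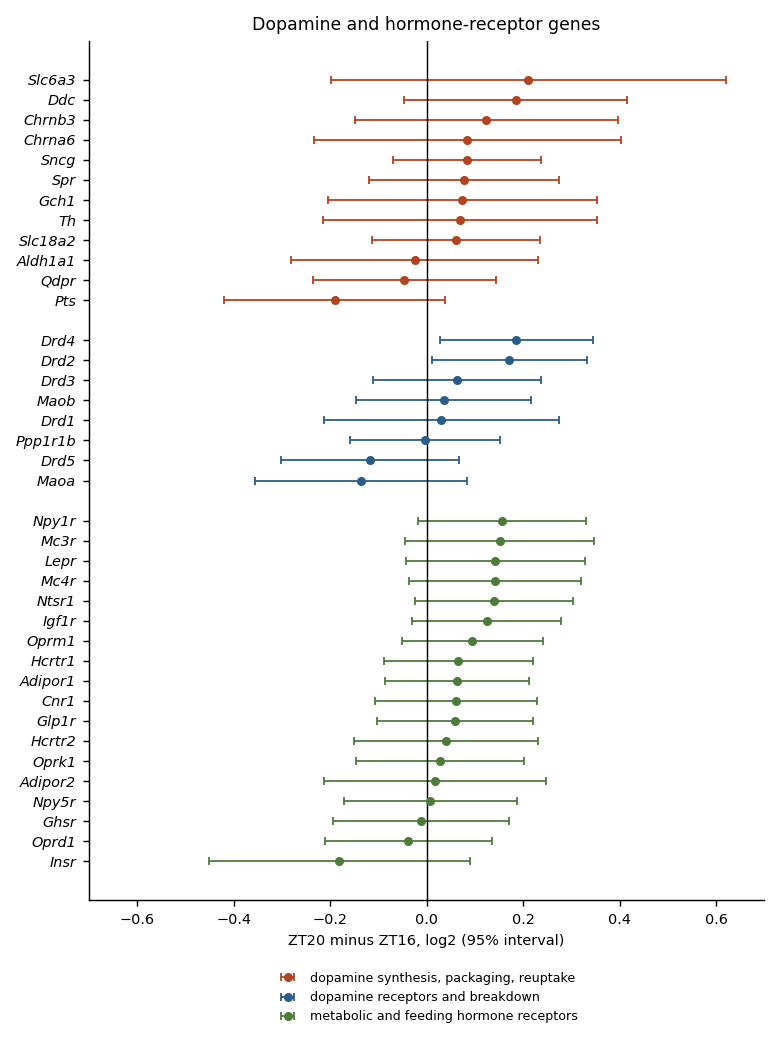
Difference between ZT20 and ZT16 on the log2 scale (x axis) with its 95% interval for the measured members of 3 gene lists (y axis, by list and by size of the difference). Only the intervals of Drd4 and Drd2 lie wholly above 0, and 15 of the 18 hormone receptors have estimates above 0.

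Among 19 neuropeptide genes 13 were higher and 6 lower, with a median of 0.05 that turned to -0.03 when only transcripts above the median level were kept. Adcyap1, the precursor of PACAP, had 6.81, 6.95, 6.71 and 6.62 in ZT20 arrays, against 6.53, 6.58, 6.63 and 6.43 in ZT16 arrays. A single ZT16 array exceeded the lowest ZT20 array, and the difference was 0.23 (limma, unadjusted p = 0.0390, adjusted p = 1). Cartpt, the precursor of the feeding-related CART peptides, had 8.15, 8.60, 8.17 and 8.39 in ZT20 arrays, against 7.41, 7.51, 8.33 and 8.63 in ZT16 arrays. Its ZT16 mice fell into a low and a high pair (SD 0.60), and the difference of 0.36 had an interval of -0.26 to 0.97.

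Kcnn3 (SK3), a calcium-activated potassium channel that shapes the firing of dopamine neurons, showed the narrowest ZT20 values of the channels named. Its levels were 7.67, 7.68, 7.66 and 7.67 in ZT20 arrays, against 7.41, 7.53, 7.45 and 7.46 in ZT16 arrays, with all ZT20 arrays above. The difference was 0.21 (95% interval 0.05 to 0.36; limma, unadjusted p = 0.0106, adjusted p = 1). It was 1 of 31 potassium channel genes under an unadjusted p of 0.05, a share near the 3.87% of all transcripts, and the list had 16 members higher and 15 lower. Grin2b, an NMDA receptor subunit, differed by 0.19 with overlap between the groups and was 1 of 24 ionotropic glutamate and GABA-A receptor genes under an unadjusted p of 0.05, again near the 3.87% of all transcripts.

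Several lists of genes with high levels were lower at ZT20 by small amounts, without a member that passed. Of 74 nuclear genes of oxidative phosphorylation 57 were lower and 17 higher (median -0.06), of 31 proteasome genes 25 were lower and 6 higher (median -0.07), and of 26 genes of SR splicing factors and hnRNPs 20 were lower and 6 higher (median -0.04). Nearly all of the first 2 lists lie in the high class by level (73 of 74 and 30 of 31), where the median over all transcripts was -0.01. The array means of the oxidative phosphorylation genes were 9.15, 9.08, 9.13 and 8.96 in ZT20 arrays, against 9.04, 9.24, 9.14 and 9.14 in ZT16 arrays. ZT20 replicate 4 was the lowest and ZT16 replicate 2 the highest of the 8. Without ZT20 replicate 4 the medians were -0.02 for oxidative phosphorylation, -0.03 for the proteasome and -0.03 for the splicing factors. ZT20 replicate 4 was the lowest ZT20 array in 23 of the 38 lists, and its part in these results beyond those values was not tested.

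Of those lists, the member with the smallest p was Hnrnpdl, an RNA-binding regulator of splicing, with 9.01, 9.11, 9.08 and 8.84 in ZT20 arrays, against 9.14, 9.33, 9.21 and 9.23 in ZT16 arrays, without overlap (-0.22; limma, unadjusted p = 0.0279, adjusted p = 1). Psmc6, an ATPase of the proteasome's regulatory particle, had 7.94, 7.79, 7.92 and 7.91 in ZT20 arrays, against 7.97, 8.19, 8.10 and 8.16 in ZT16 arrays, also without overlap. Its difference of -0.21 had an unadjusted p of 0.0861 from limma. Ndufa2, Atp5j, Ndufa1 and Cox7a2 had the smallest p of the oxidative phosphorylation genes, with differences of -0.22, -0.17, -0.25 and -0.18. Of 55 cytosolic ribosomal protein genes 35 were lower and 20 higher (median -0.03, turning to 0.02 without ZT20 replicate 4).

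Of 17 heat shock and chaperone genes 14 were lower and 3 higher, with a median of -0.03 that turned to 0.01 without ZT20 replicate 4. Both cold-inducible RNA-binding genes, whose RNAs are known to rise as body temperature falls, were lower (Cirbp by -0.13 and Rbm3 by -0.17), with overlap between the groups. Of 17 glucocorticoid-induced genes 11 were lower and 6 higher (median -0.02, above 0 under 2 alternatives), and Fkbp5, a classical target of the glucocorticoid receptor, averaged 6.39 ± 0.04 at ZT20 and 6.49 ± 0.13 at ZT16 (SD, n = 4 each). Among 23 immediate early genes, which neurons switch on with activity, 15 were lower and 8 higher (median -0.02), and 1 (Dusp6, which dephosphorylates ERK) was under an unadjusted p of 0.05, a share near the 3.87% of all transcripts. Dusp6 had 6.63, 6.54, 6.38 and 6.42 in ZT20 arrays, against 6.15, 6.26, 6.37 and 6.29 in ZT16 arrays, with all ZT20 arrays above (0.22).

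Markers of the other cells in the punch were measured to show whether its make-up differed. Of 13 oligodendrocyte genes 10 were lower and 3 higher (median -0.03), and their summed linear level was 7891 to 8825 in ZT20 arrays and 8261 to 8892 in ZT16 arrays. Mog, a protein of the myelin surface, had 8.11, 8.20, 8.0 and 8.06 in ZT20 arrays, against 8.20, 8.29, 8.25 and 8.39 in ZT16 arrays, where only the highest ZT20 array reached the lowest ZT16 array (-0.19; limma, unadjusted p = 0.0121, adjusted p = 1). Opalin, a myelin membrane protein, differed by -0.28 (unadjusted p = 0.0275 from limma), with overlap. Aspa, which cleaves N-acetylaspartate, differed by -0.29 without overlap between the groups. Microglia genes were lower in 10 of 13 (median -0.04), astrocyte genes were higher in 9 of 15 (median 0.01, below 0 without 1 of 3 arrays in turn), and genes of vessels were higher in 8 of 15 (median 0.06). Cldn5, a tight junction protein of brain endothelium, had 7.30, 7.49, 7.26 and 7.42 in ZT20 arrays, against 7.11, 7.22, 7.21 and 7.13 in ZT16 arrays, with all ZT20 arrays above (0.20). The other 7 vessel genes were lower, and Slco1a4, an organic anion transporter of brain endothelium, had the largest difference of the list and the opposite direction, with 7.25, 7.03, 7.35 and 7.01 in ZT20 arrays, against 7.29, 7.48, 7.52 and 7.29 in ZT16 arrays (-0.23). In none of the 38 lists (0) did the array means of ZT20 and ZT16 separate without overlap.

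**Figure D4:**
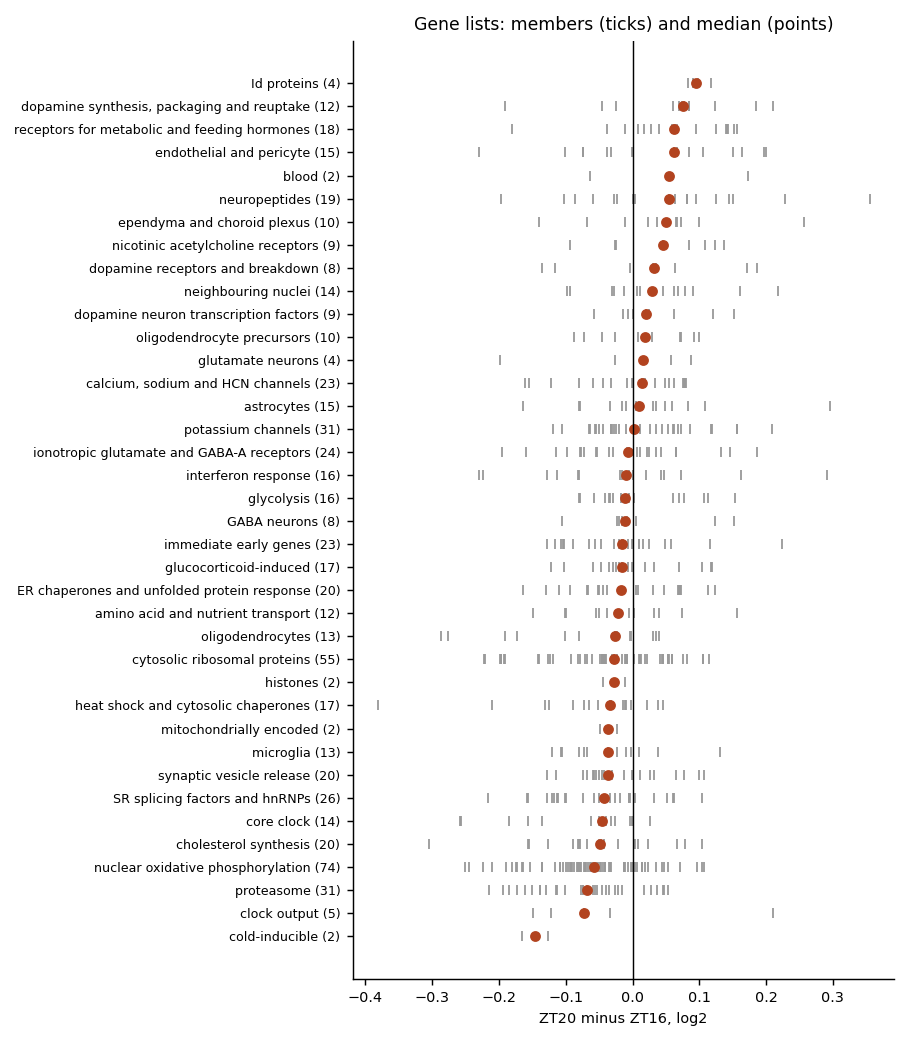
Difference between ZT20 and ZT16 on the log2 scale (x axis) for each measured member (grey ticks) of the 38 gene lists (y axis, number of members in parentheses), with the median as a red point. Medians lie between -0.15 for the 2 cold-inducible genes and 0.09 for the Id proteins.

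Over the 38 lists together, 621 distinct genes were measured, 0 passed after adjustment by limma, and 16 (2.58%) were under an unadjusted p of 0.05, beside 3.87% of all transcripts. Id proteins, which block the DNA binding of bHLH factors, were the list with the highest median, with 4 of 4 higher by 0.08 to 0.12 and none under an unadjusted p of 0.05. Gbp4, an interferon-induced GTPase, was the listed gene with the smallest p among those higher at ZT20, with 6.17, 6.08, 6.12 and 6.28 in ZT20 arrays, against 5.97, 5.95, 5.82 and 5.75 in ZT16 arrays. Its list of 16 interferon response genes had 7 higher and 9 lower, and Ifit3 differed by -0.23.

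Since no transcript passed, the genes with the largest differences among those above the median level and under an unadjusted p of 0.01 are given as a description (12 in each direction). They were chosen by this contrast, so their size and separation are no evidence for a change. Their differences were 1.19-fold to 1.39-fold. Higher at ZT20 were the olfactory receptor genes Olfr316 (0.35), Olfr360 (0.33) and Olfr958 (0.32), Rwdd1 (0.34), Dcpp3 (0.33), the growth factor gene Fgf5 (0.29), the melanosome protein gene Mlana (0.29), the ceramide kinase gene Cerk (0.29), the forkhead gene Foxn2 (0.28), the antisense RNA gene Usp46os2 (0.27), Gpa33 (0.26) and Nynrin (0.25). Olfactory receptors and Dcpp genes belong to families of similar sequence whose probes can cross-hybridize. The array is stated to label sense target, but the strand seen by Usp46os2 probes was not checked.

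Fgf5 had the smallest p of those higher. Its levels were 6.97, 6.86, 7.08 and 6.99 in ZT20 arrays, against 6.73, 6.76, 6.56 and 6.67 in ZT16 arrays, a difference of 0.29 ± 0.07 (SE; limma, unadjusted p = 0.000325, adjusted p = 1). Cerk, which phosphorylates ceramide, had 7.30, 7.18, 7.35 and 7.43 in ZT20 arrays, against 7.05, 6.86, 6.98 and 7.20 in ZT16 arrays, with a single crossing between the groups. Nynrin had 2 further probe sets that differed by 0.07 and -0.05, unlike the one named. In 8 of the 12 all ZT20 arrays lay above all ZT16 arrays, where 1.43% of all transcripts did.

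Lower at ZT20 were the small nucleolar RNA gene Snord82 (-0.48), Psme2 (-0.47), Hspa1a (-0.38), the mitochondrial ribosome gene Mrpl23 (-0.35), Tbc1d5 (-0.33), Akirin1 (-0.32), Pcnp (-0.31), Bcdin3d (-0.31), Aatf (-0.30), the magnesium transporter gene Slc41a2 (-0.30), Ezr (-0.30) and Nme2 (-0.30). Psme2, a subunit of the PA28 proteasome activator, had 6.28, 6.73, 6.50 and 6.60 in ZT20 arrays, against 6.81, 6.90, 7.03 and 7.24 in ZT16 arrays, without overlap (-0.47 ± 0.11, SE; limma, unadjusted p = 0.000165, adjusted p = 1). Hspa1a, an inducible HSP70, had 6.87, 6.70, 6.91 and 7.0 in ZT20 arrays, against 7.15, 7.28, 7.50 and 7.07 in ZT16 arrays, also without overlap. Both genes have a near-identical copy, Psme2b and Hspa1b. A probe set assigned to both Psme2 and Psme2b differed by -0.03, and one assigned to both Hspa1a and Hspa1b by 0.04, so the differences were seen at 1 probe set each and are uncertain.

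Mrpl23 had a second probe set with nearly the same difference, -0.34. Its named probe set had 6.43, 7.04, 6.78 and 6.63 in ZT20 arrays, against 6.95, 7.28, 7.01 and 7.05 in ZT16 arrays, with overlap through ZT20 replicate 2. The reference table also lists a pseudogene of it. Ezr (ezrin), which links membrane and actin, had 6.61, 6.74, 6.67 and 6.56 in ZT20 arrays, against 7.04, 6.86, 6.94 and 6.94 in ZT16 arrays, without overlap. Tbc1d5, a regulator of endosome traffic, had 7.55, 7.64, 7.58 and 7.53 in ZT20 arrays, against 7.72, 8.13, 7.90 and 7.87 in ZT16 arrays. Second probe sets differed by less, -0.17 for Tbc1d5 and -0.12 for Pcnp. In 9 of the 12 all ZT20 arrays lay below all ZT16 arrays, where 1.36% of all transcripts did.

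**Figure D5:**
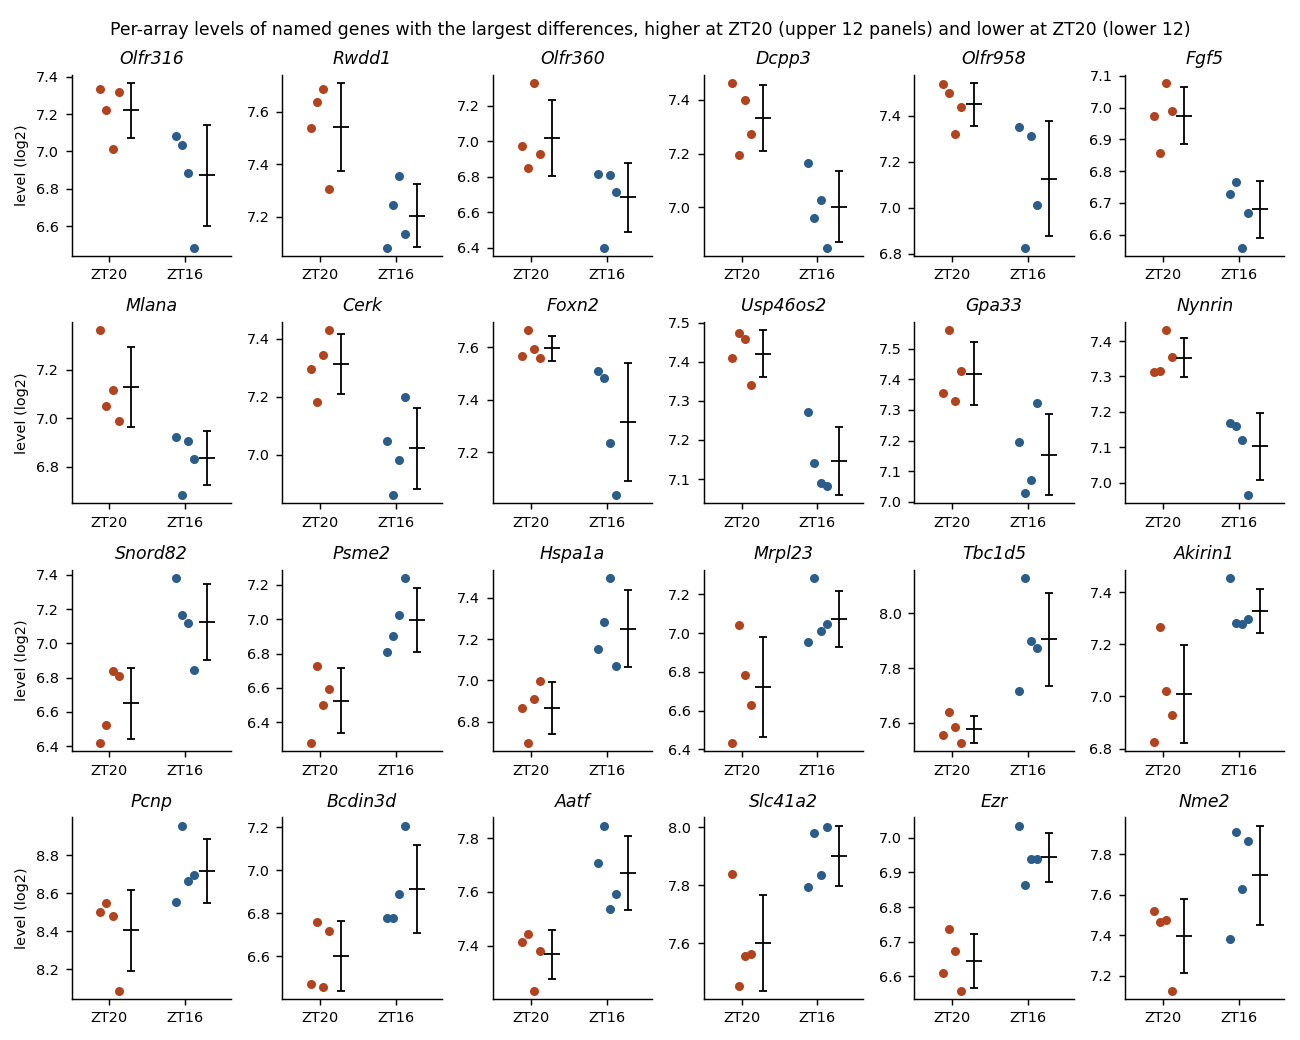
Log2 levels (y axis, own scale for each gene) in the 4 ZT20 arrays (red, left) and the 4 ZT16 arrays (blue, right) of the 24 genes chosen for their difference, with mean and SD beside the points. The upper 12 were higher and the lower 12 lower at ZT20, with 8 and 9 of them showing no overlap.

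Set against the other times of day, the 24 genes lay at the edges. Of the 12 higher at ZT20, 10 had their highest mean of the 6 times at ZT20 and 11 their lowest at ZT16. Of the 12 lower, 11 had their lowest mean at ZT20 and 8 their highest at ZT16. Since the genes were chosen for a large difference between these times, this describes the choice and no rhythm was tested.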

How the data were processed

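Total RNA of VTA punches was labelled and hybridized to Affymetrix Mouse Gene 1.0 ST arrays, 1 per mouse. The authors deposited 1 table of log2 values made with RMA (background correction, quantile normalization, median polish) in R 2.13.1, per the labels. Their later step of dividing by each gene's average is not in the values, and quantile normalization hides any shift shared by all genes. The methods give 6-h sampling and the labels 4-h. The labels were followed. The table holds 35556 probe sets with values of 2.27 to 14.1 and 0 unmapped columns. Those without a gene (12146) were left out, and the rest (23410, of which 21789 have 1 gene) were named through the GRCm38.p6 gene table (21698 matched). Level of signal and number of arrays, not read depth, limit the precision.

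The 6 times were fitted as groups over 24 arrays with limma 3.58.1 in R 4.3.3, the moderated two-sided test of ZT20 minus ZT16 was adjusted by Benjamini-Hochberg over all transcripts, and of several probe sets of a listed gene the brightest on average stood for it. The fit was tested on simulated data. Named genes were the 12 largest differences in each direction (adjusted p under 0.05, filled at an unadjusted p under 0.01, above the median level), the clock genes, and the 4 smallest p of each other list. Members and the 38 lists were chosen with earlier results of these data known. Plots used matplotlib 3.10.9. Replicates are separate mice.

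Alternatives were fits of the 8 arrays, other normalizations, filters, array weights, a robust and trended variance, the replicate number as a block, and leaving out arrays. Named genes also had an exact permutation test over the 8 arrays.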

Additional observations from a re-analysis of the deposited data

Results flagged for a closer look

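Each of the 352 sets of 4 arrays (176 genes at 2 times) was checked for 1 array far from the other 3 by Dixon's test at its 95% critical value, and 22 were found. Chance gives about 1 in 20 such sets, so this number is near what chance gives.

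Of the clock genes, only Per1 was among them, at 6.69 in ZT16 replicate 3 with the others at 6.53 to 6.55. Among the 24 genes with the largest differences, Akirin1 was at 7.45 in ZT16 replicate 1 (others 7.28 to 7.30), Pcnp at 8.09 in ZT20 replicate 4 (others 8.48 to 8.55) and Nme2 at 7.13 in ZT20 replicate 4 (others 7.46 to 7.52).

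Slc6a4, the serotonin transporter, was at 7.80 in ZT20 replicate 2 (others 8.45 to 8.52), and Tph2, the enzyme of serotonin synthesis in neurons, at 7.17 in the same array (others 7.64 to 7.72). Both mark serotonin neurons of the raphe nuclei, which neighbour the VTA. In the same array Foxa2 was at 6.91 (others 7.03 to 7.04).

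ZT20 replicate 3 was apart for Slc17a8, at 6.38 (others 6.23 to 6.25), and Usp18, at 5.69 (others 5.90 to 5.92). ZT20 replicate 4 was apart for Hk2, at 6.76 (others 6.89 to 6.91). ZT16 replicate 1 was apart for Agt, at 8.11 (others 8.29 to 8.32), Tpi1, at 9.35 (others 9.45 to 9.47), Psma2, at 8.36 (others 8.64 to 8.67), and Srsf3, at 8.98 (others 9.21 to 9.24). ZT16 replicate 2 was apart for Ndufa2, at 8.12 (others 7.57 to 7.61), and Grin2b, at 7.15 (others 6.91 to 6.94). ZT16 replicate 3 was apart for Bdnf, at 6.25 (others 6.41 to 6.44). ZT16 replicate 4 was apart for Gata3, at 7.13 (others 6.77 to 6.82), Ntsr1, at 6.43 (others 6.23 to 6.26), Hcn3, at 7.02 (others 6.52 to 6.58), Slc16a1, at 6.99 (others 6.57 to 6.63), and Dnaja1, at 10.2 (others 10.4 to 10.5).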

How the results depend on the processing

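The count of transcripts at an adjusted p under 0.05 was 0 in every alternative run, for ZT20 against ZT16 and for the comparison of this step with ZT8 against ZT4. The smallest adjusted p of any alternative was 0.286, without ZT16 replicate 3. The count at an unadjusted p under 0.05 was 905. It was 301 among transcripts above the median level, where fewer were tested and the share under this p was also smaller at higher levels. It was 1548 over all probe sets, where more were tested, those without a gene at a share of 5.99%. With array weights (0.167 to 2.46) it was 1370, and the cause was not tested. It was 1231 in the fit of the 8 arrays alone, 1308 without ZT0 replicate 4, and 725 to 1211 on leaving out 1 of the 8 arrays in turn. The 1370, 1231, 1308 and 1211 lie above the 1170.5 of an even spread, and 905 lies below it. No pairing by replicate number was seen, with deviations of same-numbered arrays correlated at -0.16 to 0.05 across transcripts. Arrays of different number were not compared in this way, so a weak pairing is not excluded. With the replicate block 975 transcripts were under an unadjusted p of 0.05 and 0 after adjustment. Differences of the named genes stayed on the same side of the threshold in all 3303 results of alternatives. They changed sign in 28 of them, in 13 genes, none (0) of which were among the 24 largest. The 3303 include 1 exact permutation result for each of the 176 named genes. The smallest p of that permutation test, 0.0286, could not pass after adjustment here. It also reuses the main difference, so these results could not change. List medians changed sign in 39 of 494 results, in 18 lists. Those of the core clock, dopamine synthesis, hormone receptor, oxidative phosphorylation, proteasome, splicing factor and oligodendrocyte lists did not, though that of the core clock ranged from -0.09 to -0.02. The share of transcripts whose 95% interval lay within 1.5-fold, an outcome chosen after seeing the counts, was 98.8%, and 87.5% to 99.4% over the alternatives, lowest over all probe sets.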

Other observations

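Outside the transcripts compared, 727 of the 12146 probe sets without a gene in the annotation (5.99%) were under an unadjusted p of 0.05 between ZT20 and ZT16, and 0 passed after adjustment by limma.

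Only 2 mitochondrially encoded genes were measured by name, and both varied more at ZT16 than at ZT20. COX2, a subunit of cytochrome c oxidase, had 12.8 in each ZT20 array, against 13.0, 12.8, 13.0 and 12.7 in ZT16 arrays. ND3, a subunit of complex I, had an SD of 0.06 at ZT20 and 0.21 at ZT16.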
